A study of Mus musculus with 22 samples.

Results

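The 10 genes described here form the core of the circadian clock and its first output: the activators Clock, Arntl and Npas2, the repressors Per1, Per2, Per3, Nr1d1 and Nr1d2, and the output factors Dbp and Tef. Probes were taken where the array's target name was one of these symbols, which gave 17 of the 45281 probes. Of the 17, 11 probes passed the detection filter (detection p under 0.05 on at least 5 arrays) and 8 of the 10 genes could be tested among 9881 tested genes. Arntl and Npas2 could not.

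Expression was measured on Illumina BeadChips in the livers of 22 C57BL/6J males at 29 weeks of age, with 1 array for each animal. Their dams were put on western feed, written W, or on low-fat control feed, written L, at 5 weeks of age, were mated after 6 weeks and stayed on it while pregnant and nursing. The sons were fed W or L for 24 weeks from weaning. In the group names the dam's diet stands first and the offspring's second: LL (n = 6, low-fat diet in both periods), LW (n = 5, western diet only after weaning), WL (n = 5, western diet of the dam only) and WW (n = 6, western diet in both periods). All groups share strain, sex and age, and the series text says that 1 experimental and 1 biological outlier had been left out by the submitters. The labels name no litter and no time of day of collection, so whether mice of different groups were sampled at the same clock time was not tested. Because whole liver was used, fewer cells of a type and less RNA per cell cannot be told apart.

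The circadian clock of the liver is a loop of transcription. CLOCK, or its relative NPAS2, pairs with the product of Arntl (BMAL1) and switches on the Per genes, the nuclear receptors Nr1d1 and Nr1d2 (REV-ERB alpha and beta) and Dbp. PER proteins then hold back the pair, REV-ERB proteins hold back transcription of Arntl and related activators, and the PAR bZIP factors DBP and TEF pass the rhythm on to genes of metabolism through D-box elements. In mouse liver the activators and the repressors peak at different times of day, so a set of livers taken at one time can show one part of the loop high and the other low.

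Promoter sequences are shown for 4 genes whose levels carry the results below: Per3, Tef and Dbp, which moved together between mice, and Clock, which ran the other way. Each is the 250 bases before the gene's start in RefSeq (build GRCm38.p6), written 5′ to 3′ on the gene's strand, with motif matches in capitals. The Per3 window lies at chr4:151044666-151044915 on the minus strand, that of Tef at chr15:81802423-81802672 on the plus strand, that of Dbp at chr7:45704997-45705246 on the plus strand and that of Clock at chr5:76304793-76305042 on the minus strand.
Per3: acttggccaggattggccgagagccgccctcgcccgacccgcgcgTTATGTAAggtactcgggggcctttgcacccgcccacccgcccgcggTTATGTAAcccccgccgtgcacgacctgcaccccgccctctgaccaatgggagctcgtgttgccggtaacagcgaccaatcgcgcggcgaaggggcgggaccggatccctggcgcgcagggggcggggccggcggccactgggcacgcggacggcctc
Tef: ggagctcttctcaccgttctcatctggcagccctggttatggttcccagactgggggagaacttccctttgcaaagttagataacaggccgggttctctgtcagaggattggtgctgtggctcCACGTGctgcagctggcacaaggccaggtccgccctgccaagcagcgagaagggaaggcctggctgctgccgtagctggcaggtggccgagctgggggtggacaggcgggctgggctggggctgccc
Dbp: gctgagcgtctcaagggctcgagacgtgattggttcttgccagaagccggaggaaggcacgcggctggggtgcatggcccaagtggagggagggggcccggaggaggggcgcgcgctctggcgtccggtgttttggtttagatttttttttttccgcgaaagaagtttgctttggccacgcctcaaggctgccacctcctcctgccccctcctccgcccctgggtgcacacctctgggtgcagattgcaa
Clock: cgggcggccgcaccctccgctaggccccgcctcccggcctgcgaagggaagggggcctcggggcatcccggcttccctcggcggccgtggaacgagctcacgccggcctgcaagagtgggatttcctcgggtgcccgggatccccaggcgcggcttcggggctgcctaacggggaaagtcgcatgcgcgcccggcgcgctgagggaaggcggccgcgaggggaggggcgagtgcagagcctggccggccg

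The Per3 window held 2 copies of the D-box TTATGTAA, the element that DBP and TEF bind, at 205 to 198 and at 158 to 151 bases before the start. Over 27025 promoters of the same length 0.862% held this motif on either strand, and Per3 was the 1 gene among the 9 members with a promoter in the table that did. Per2 was the member without a promoter there, so it is not shown and was not searched. The E-box CACGTG, the element of the CLOCK and BMAL1 pair, was found in Tef (127 to 122 bases before the start) and in Per1 (166 to 161), against 6.04% of all promoters. The variant CACGTT was found on the reverse strand of Nr1d1 (28 to 23 bases before the start), against 3.93% of all. The other letters searched on both strands were TTACGTAA (0.0999% of all promoters), the orphan receptor elements TAGGTCA (2.25%) and TGGGTCA (3.22%) and the cAMP response element TGACGTCA (1.6%), and none of these was in a member's window. None of the motifs searched overlaps another in these windows. Dbp, Clock, Arntl, Npas2 and Nr1d2 held no match in this window.

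The arrays detected between 13285 and 15105 probes each, with a mean intensity between 151 and 276 units, and lay on 4 slides that the groups fill unevenly. The lowest mean intensity belonged to LL replicate 1. Of 8 hepatocyte markers 7 passed the filter, with a summed normalized intensity from 80094 to 108493, and the highest sum was in WL replicate 5. All 7 were lower with a western diet after weaning, averaged over dam diets (median -0.18, against 0.005 over all genes). In LW against LL 7 of 7 were lower (median -0.13) and in WW against WL 6 of 7 (median -0.11). None of these was called, and their part in the results was not tested. Of 10 exocrine pancreas markers 3 passed (sum 571 to 1450), and of 7 macrophage markers 6 did (2117 to 3531), with ranges that overlapped between all groups. Of 5 adipocyte markers 1 passed, while Adipoq, Retn, Fabp4 and Plin1 did not, and it ran from 26 to 475 in LL and 22 to 547 in WL against 289 to 1186 in LW and 45 to 2344 in WW. That marker, Cfd, was called higher with a western diet after weaning (2.30 ± 0.59, adjusted p = 0.0345), and its part in the results was not tested. LL replicate 1 and WL replicate 5 recur below at the ends of the range of several clock genes, and the calls and pairs they move are given without both.

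Levels are given as log2 of the background-corrected, quantile-normalized intensity, for which 1 unit is a doubling. Values near 4.9 and below are at background, where differences are compressed, and levels of different genes are not compared because each probe has its own brightness. A gene was called where its Benjamini-Hochberg adjusted p in the limma fit over 9881 genes was under 0.05, and differences carry their standard error (SE).

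Among the activators, Arntl and Npas2 were at or near background in nearly all livers. Npas2, the CLOCK relative, was detected on 0 of 22 arrays, with intensities from -15.5 to 5.1 units. Arntl, which encodes BMAL1, was detected on 2 of 22 arrays, LL replicate 1 at 13.2 units and LL replicate 5 at 14.1 units. These were the mice with the lowest and second lowest Dbp of all 22, at 9.24 and 10.34. They also had the lowest and second lowest Per2, at 5.81 and 6.29. Both Arntl signals were close to background, with log2 levels of 5.07 in LL replicate 1 and 4.89 in LL replicate 5. The dimmest detected signals on these arrays were at 4.92 and 4.86. The detection threshold lets some background signals pass, so both detections may be background. Whether Arntl went with low Dbp or Per2 was not tested. Neither Arntl nor Npas2 had a level that could be compared between groups.

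Clock was measured by 3 probes, of which 1 was detected on all 22 arrays and was tested. The other 2 were detected on 4 arrays, all of them LL, and on 0 arrays. The signals on those 4 arrays were dim (13.1 to 16.8 units) and may be background, and neither probe passed the filter. In LL the level of Clock ran from 8.62 over a median of 8.79 to 8.92. The 5 LW mice had 7.82, 8.45, 8.32, 8.28 and 7.93. Every LW mouse thus lay below every LL mouse. In WL the 5 values were 8.32, 8.52, 8.46, 8.55 and 9.06, the last in WL replicate 5. The WW mice ran from 8.0 over 8.12 to 8.29, so that every WW mouse lay below every WL mouse. The group means fell in the order LL (8.77 ± 0.10 SD), WL (8.58 ± 0.28), LW (8.16 ± 0.27) and WW (8.13 ± 0.10), and only the step from WL to LW was larger than the SD of the groups beside it.

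Clock was 1.53-fold lower in LW than in LL (log2 difference -0.61 ± 0.13 SE, adjusted p = 0.0398). It was the 1 member called of 8 tested in this comparison, where 0.243% of all genes were called, 0.0911% higher and 0.152% lower. In WW against WL it was 1.37-fold lower without passing (-0.45 ± 0.13, adjusted p = 0.118), and 0 of 8 members were called against 0.476% of all genes. Averaged over both dam diets, Clock fell by 0.53 with a western diet after weaning (SE 0.09, adjusted p = 0.00207), and this call was kept whichever mouse was left out and with slide as a block (-0.52, adjusted p = 0.00752). The difference did not depend detectably on the dam's diet (interaction 0.16 ± 0.18, 95% interval from -0.21 to 0.54, adjusted p = 0.842). Groups that do not overlap were found for 1 of 8 members in LW against LL and 1 of 8 in WW against WL, Clock in both, beside 2.34% and 1.82% of all genes.

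The single call in LW against LL was close to the threshold. With slide as a block the difference was -0.56 (adjusted p = 0.146), and within slides 1 and 3, which held both groups, it was -0.57 and -0.79. With the submitters' own normalized values it was -0.22 (adjusted p = 0.141). The call held in 10 of the 22 fits that each omit a single mouse. It was lost without LW replicate 1, 3, 4 or 5, LL replicate 2, 4, 5 or 6, WL replicate 2 or 3, or WW replicate 2 or 4, with an adjusted p up to 0.21. In WW against WL, Clock differed by -0.18 within slide 2 and by -0.95 within slide 4, where the only WL array was WL replicate 5, and with slide as a block it passed (-0.48, adjusted p = 0.0496).

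**Figure D1:**
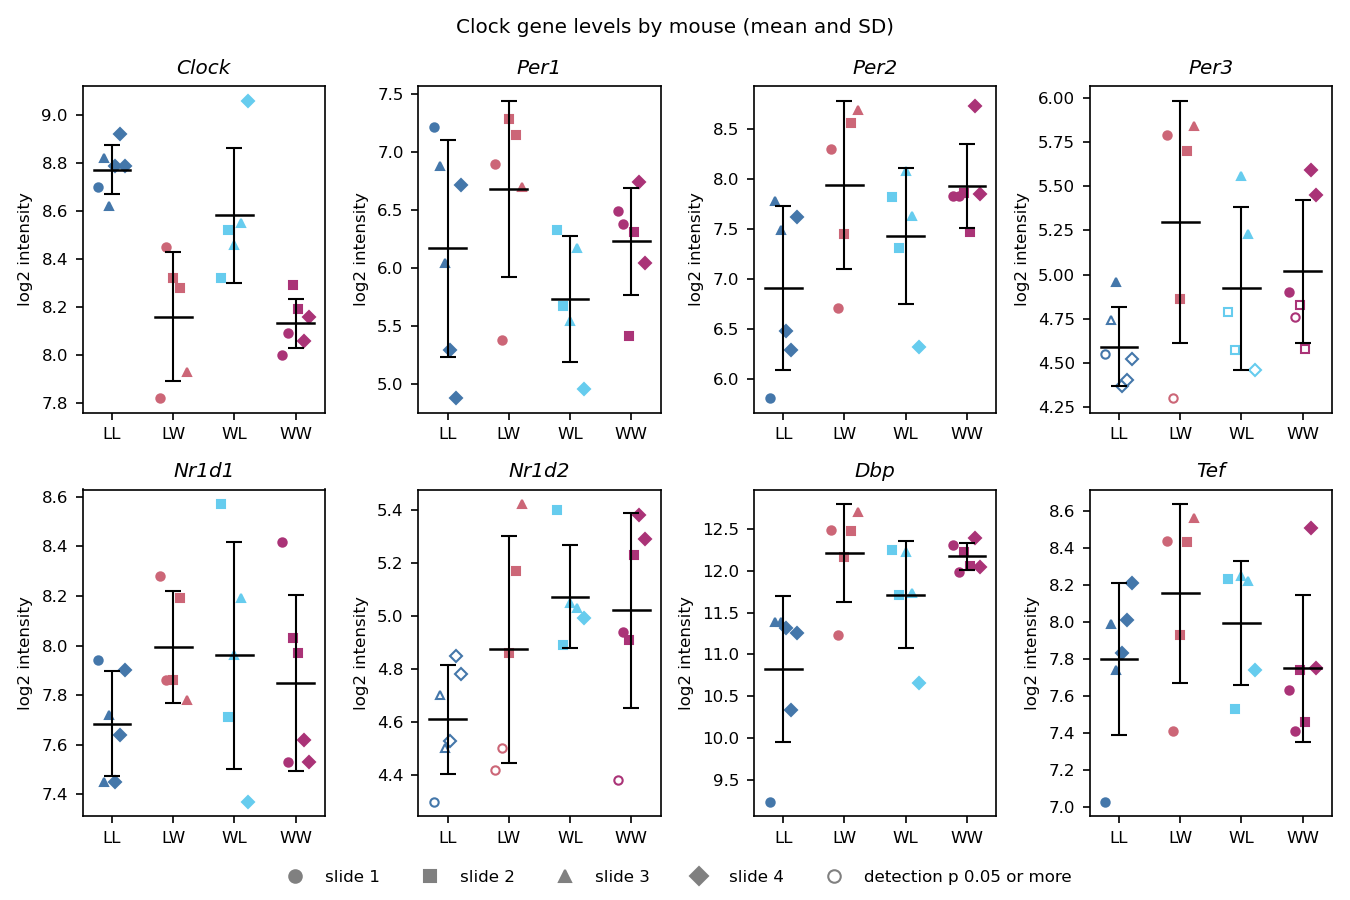
Log2 intensity of the 8 tested clock genes in each of 22 mice by group, with the marker shape giving the slide and open markers a detection p of 0.05 or more; lines and bars are group mean and SD. All LW mice lie below all LL mice for Clock (7.82 to 8.45 against 8.62 to 8.92), while Dbp and Per2 are lowest in LL replicate 1 (9.24 and 5.81).

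Dbp, the PAR bZIP factor with one of the widest daily swings in mouse liver, ran opposite to Clock. In LL its level went from 9.24 over a median of 11.28 to 11.39. The 5 LW mice had 12.49, 11.23, 12.16, 12.48 and 12.70. All LW mice but replicate 2 lay above every LL mouse. The WL mice had 12.25, 11.71, 12.22, 11.73 and 10.66, the last again in WL replicate 5. In WW the values ran from 11.99 over 12.14 to 12.39, the tightest of the groups (SD 0.16, against 0.87 in LL). The order of the means, LW (12.21), WW (12.17), WL (11.71) and LL (10.82), was nearly the reverse of that of Clock, and only the step from WL to LL was larger than the SD of its neighbours.

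Averaged over both dam diets, Dbp was 1.90-fold higher with a western diet after weaning (0.92 ± 0.24, adjusted p = 0.0341), beside 2.71% of all genes called in this average, 1.53% higher and 1.18% lower. With Clock, 2 of the 8 members were called here, 1 higher and 1 lower. With slide as a block Dbp rose by 1.19 (adjusted p = 0.00943), and Per2 (1.10, adjusted p = 0.0279) and Per3 (0.65, adjusted p = 0.0467) passed as well. Without LL replicate 1 and WL replicate 5 together the Dbp difference was smaller and still passed (0.63, adjusted p = 0.0439), as did that of Clock (-0.48, adjusted p = 0.00401). The Dbp call was kept in 12 of 22 cases with 1 mouse left out, and was lost without LW replicate 1, 3, 4 or 5, WW replicate 1, 2 or 3, WL replicate 4 or 5, or LL replicate 5 (adjusted p up to 0.0824). In LW against LL alone Dbp differed by 1.39 ± 0.33, or 2.62-fold, without passing (adjusted p = 0.0689). Without LL replicate 1 and WL replicate 5 together it passed there (1.07, adjusted p = 0.0252), and it also passed without LW replicate 2 (1.63) or without WL replicate 5 (1.39). Within slides 1 and 3 the LW minus LL difference of Dbp was 2.62 and 1.30, with LL replicate 1 as the only LL array on slide 1. In WW against WL the difference was 0.46 ± 0.33 (adjusted p = 0.575), at 0.17 within slide 2 and 1.56 within slide 4.

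Tef, the other PAR bZIP factor, did not follow the group means of Dbp. Its level ran from 7.03 over 7.91 to 8.21 in LL. The LW mice had 8.44, 7.41, 7.93, 8.43 and 8.56. In WL the values were 8.23, 7.53, 8.25, 8.22 and 7.74. In WW they ran from 7.41 over 7.68 to 8.51, and all 4 groups overlapped. The differences were 0.35 ± 0.23 in LW against LL (adjusted p = 0.475) and -0.24 ± 0.23 in WW against WL (adjusted p = 0.678). A second Tef probe, detected on 8 of 22 arrays, went with the tested one only weakly over mice (r = 0.26).

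Of the repressors, Per2, a PERIOD protein that holds back the CLOCK and BMAL1 pair, had the same order of group means as Dbp: LW (7.94 ± 0.84 SD), WW (7.93 ± 0.42), WL (7.43 ± 0.68) and LL (6.91 ± 0.82). No step between neighbours was larger than their SD. In LL the level ran from 5.81 over 6.98 to 7.78. The LW mice had 8.30, 6.71, 7.45, 8.56 and 8.69. The WL mice had 7.82, 7.31, 8.08, 7.63 and 6.32. In WW it ran from 7.47 over 7.84 to 8.73, so the groups overlapped throughout. The difference was 1.03 ± 0.38 in LW against LL (adjusted p = 0.193) and 0.49 ± 0.38 in WW against WL (adjusted p = 0.592). A second Per2 probe gave 0.65 ± 0.33 in LW against LL and followed the first over mice (r = 0.95), and the remaining probe was detected on 1 array.

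Per3 was near background, with 10 of 22 arrays detected: 1 of 6 in LL, 4 of 5 in LW, 2 of 5 in WL and 3 of 6 in WW. In LL it ran from 4.37 over 4.54 to 4.96. The LW mice had 5.79, 4.30, 4.86, 5.70 and 5.84. LW replicate 2, which was also the lowest LW mouse for Dbp, Per1, Per2 and Tef, was thus at background for Per3. The WL mice had 4.79, 4.57, 5.56, 5.23 and 4.46, and WW ran from 4.58 over 4.86 to 5.59. The LW minus LL difference was 0.71 ± 0.25 (adjusted p = 0.186).

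Per1, the PERIOD gene that also answers rapidly to hormonal and feeding signals, had another order of means: LW (6.68), WW (6.23), LL (6.17) and WL (5.73). In LL it ran from 4.88 over 6.38 to 7.21, and the highest of these was LL replicate 1, the mouse with the lowest Dbp and Per2. The LW mice had 6.89, 5.38, 7.28, 7.14 and 6.70. The WL mice had 6.33, 5.67, 5.54, 6.17 and 4.96. In WW it ran from 5.41 over 6.34 to 6.74, and all groups overlapped. The difference was 0.51 ± 0.37 in LW against LL (adjusted p = 0.544) and 0.49 ± 0.37 in WW against WL (adjusted p = 0.593), with 0.53 ± 0.29 from a second probe in the first of these comparisons (r = 0.79 between the probes over mice).

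Nr1d1, which encodes REV-ERB alpha, differed little. It ran from 7.45 over 7.68 to 7.94 in LL. The LW mice had 8.28, 7.86, 7.86, 8.19 and 7.78. The WL mice had 8.57, 7.71, 7.96, 8.19 and 7.37, and WW ran from 7.53 over 7.80 to 8.42. The difference was 0.31 ± 0.18 in LW against LL (95% interval from -0.07 to 0.69, adjusted p = 0.439), -0.11 ± 0.18 in WW against WL (adjusted p = 0.836) and 0.28 ± 0.18 in WL against LL (adjusted p = 0.996).

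Nr1d2, the gene of REV-ERB beta, was near background and was the 1 member whose WL and LL mice did not overlap. It was detected on 0 of 6 LL arrays, 3 of 5 LW, 5 of 5 WL and 5 of 6 WW arrays. In LL it ran from 4.30 over 4.62 to 4.85. The WL mice had 5.40, 4.89, 5.05, 5.03 and 4.99, all above every LL mouse. Non-overlap was found for 1 of 8 members here, beside 0.374% of all genes. The fitted difference was 0.46 ± 0.18 (adjusted p = 0.977). With each LL mouse set to the dimmest detected signal of its array, the group mean was 1.15-fold higher in WL and 1.11-fold higher in WW. For LW the same ratio was 1.0. These ratios of means carry no allowance for the spread between mice. The LW mice had 4.42, 4.50, 4.86, 5.17 and 5.42, and WW ran from 4.38 over 5.09 to 5.38. A second Nr1d2 probe was detected on 0 arrays.

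No member was called for the dam's diet. In WL against LL, 0 of 8 members and 0% of all genes passed (468 of 9881 genes at an unadjusted p under 0.05, Dbp at 0.0134 and Nr1d2 at 0.0168 among them). Dbp was 0.89 ± 0.33 higher in WL (adjusted p = 0.974), and Clock differed by -0.19 ± 0.13 (adjusted p = 0.996). Within slides 3 and 4 the Dbp difference was 0.58 and -0.31, of opposite sign. In WW against LW, 0 of 8 members and 0% of all genes passed in the limma fit (989 at an unadjusted p under 0.05), with Dbp at -0.04 ± 0.33 (95% interval from -0.73 to 0.65) and Clock at -0.03 ± 0.13 (from -0.29 to 0.24). No member separated these groups without overlap, beside 0.638% of all genes. The average over the dam's diet called 0 members and 0% of genes (582 at an unadjusted p under 0.05), and the largest unadjusted member difference there was that of Per1 at -0.44 ± 0.26.

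The interaction of both diets was called for 0 of 8 members and 0% of all genes (790 at an unadjusted p under 0.05). Its sign was negative for 7 of the 8 members, with a median of -0.48 against -0.008 over all genes, and the largest was Dbp at -0.93 ± 0.47 (95% interval from -1.90 to 0.04, adjusted p = 0.637). In LW against LL 7 of 8 members were higher (median 0.43, against 0.01 over all genes, of which 52.0% were higher). In WW against WL 4 of 8 were higher (median 0.02), and in WL against LL 6 of 8 (median 0.30). These comparisons share LL or WL mice and are set side by side only.

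**Figure D2:**
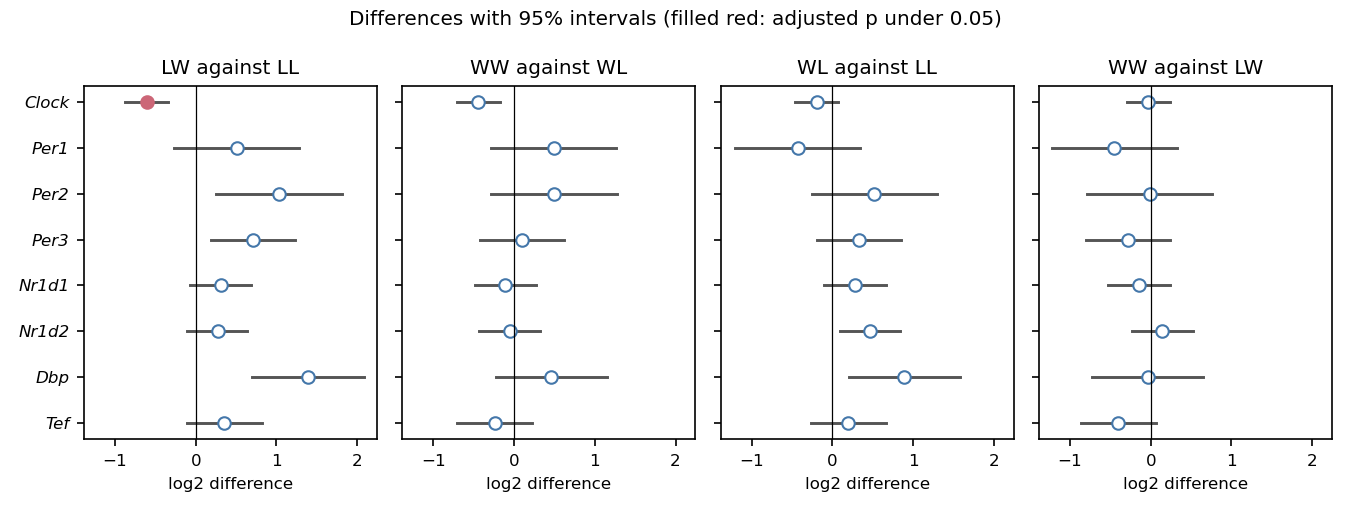
Log2 differences of the 8 tested clock genes with 95% intervals in 4 comparisons, filled red where the adjusted p is under 0.05. Clock in LW against LL is the one called value (-0.61). Without passing over all genes, the intervals of Dbp (0.70 to 2.08), Per2 (0.25 to 1.81) and Per3 (0.19 to 1.23) lie above 0 in LW against LL. Those of Dbp (0.20 to 1.58) and Nr1d2 (0.09 to 0.84) do so in WL against LL, and that of Clock (-0.71 to -0.18) lies below 0 in WW against WL.

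The clock genes differed strongly between mice of the same group although the mice are inbred. The SD within groups was 0.71 for Per2, 0.70 for Per1 and 0.62 for Dbp, against a median of 0.26 over 9881 genes. Among the 500 genes nearest in mean level, these SDs lay above 98.8%, 98.8% and 99.2% of the others. Per3 (0.46) and Tef (0.41) lay above 98.6% and 89.2% of their neighbours, and Nr1d2 (0.31) and Nr1d1 (0.32) above 81.4% and 74.4%. Clock, with an SD of 0.20, lay above 29.0%. Over all 22 mice Dbp spanned 3.45 and Clock 1.24 on the log2 scale.

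How the genes went together from mouse to mouse was measured on each mouse's deviation from its group mean, so that group differences do not enter. All 28 pairs of the 8 tested members were computed with Pearson's r and Spearman's rho, tested by two-sided permutation of mice within groups (100000 permutations) and adjusted over the 28 pairs. The pairs share genes and are not independent of each other, and Per3 and Nr1d2 were at background in many mice. By r 8 pairs passed, 7 positive and 1 negative, and by rho 8.

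Per2, Per3, Dbp and Tef formed a block in which all 6 pairs passed. The closest pair was Dbp and Per2 (r = 0.86, rho = 0.81, n = 22, permutation p = 1e-05 for both, the smallest the permutations can give, adjusted p = 0.00028). Over all 9880 other genes, Per2 was the one with the highest r to Dbp. Per2 and Tef had r = 0.80 (rho = 0.78, permutation adjusted p = 0.00084 and 0.00121), and Per2 and Per3 had r = 0.77 (rho = 0.78, permutation adjusted p = 0.00028 for both). Per3 went with Tef at r = 0.72 (rho = 0.73, permutation adjusted p = 0.00378 and 0.00462) and with Dbp at r = 0.53 (rho = 0.55, permutation adjusted p = 0.0177 and 0.0185). Dbp and Tef had r = 0.71 (rho = 0.64, permutation adjusted p = 0.00818 and 0.00952). The 1 positive pair outside this block was Nr1d2 and Tef (r = 0.58, rho = 0.60, permutation adjusted p = 0.0499 and 0.0344).

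These values were then taken without the 2 mice farthest from the median of the first gene of each pair. Without LW replicate 2 and WL replicate 5, Per2 kept r = 0.78 with Dbp, 0.76 with Tef and 0.65 with Per3. Dbp and Tef kept 0.61 without LL replicate 1 and WL replicate 5. Per3 and Tef kept 0.60 without LW replicate 2 and WL replicate 3. All of these were still past the threshold. Without LL replicate 1 and WL replicate 5 instead, Per2 and Dbp had r = 0.83. Per3 and Dbp fell to 0.33 without LW replicate 2 and WL replicate 3 (permutation adjusted p = 0.255), so that pair rests on these mice. With slide effects removed as well, r was 0.80 for Dbp and Per2, 0.86 for Per2 and Tef, 0.69 for Per2 and Per3, 0.70 for Dbp and Tef and 0.67 for Per3 and Tef. Per3 with Dbp (0.40) and Nr1d2 with Tef (0.26) did not pass with slide removed. The permutations exchanged mice within groups but not within slides, so the p-values with slide removed may be too small. No slide holds 6 mice of 1 group, so no value within a single slide and group is given. Within the LL mice alone (n = 6) r for Dbp and Per2 was 0.83 and within WW (n = 6) 0.69.

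Clock, the one activator that could be followed, went against the repressors and outputs. Its r was negative with 6 of the other 7 members and 0.00 with Nr1d2. With Per2 it was -0.59 (rho = -0.47, n = 22, permutation p = 0.014 and 0.0482, adjusted p = 0.0499 and 0.123). With Dbp it was -0.54 (rho = -0.53, permutation adjusted p = 0.0514 and 0.0413), with Per3 -0.60 (rho = -0.60, adjusted p = 0.0605 and 0.0514), with Nr1d1 -0.50 (adjusted p = 0.0938), with Per1 -0.49 (permutation adjusted p = 0.0514) and with Tef -0.36 (rho = -0.35, permutation adjusted p = 0.216 and 0.299). Without LW replicate 1 and WL replicate 5, the mice farthest from the Clock median, r was -0.47 with Per2, -0.36 with Dbp, -0.52 with Per3 and -0.17 with Nr1d1, and none of these passed. Clock and Per2 stood at the threshold with all mice. No negative pair passed without WW replicate 2, WL replicate 1 or LL replicate 4 alone, among other single mice. Without LL replicate 1 and WL replicate 5 instead, Clock and Dbp had r = -0.68 and passed (permutation adjusted p = 0.03), while Clock and Per2 had r = -0.58 and did not (permutation adjusted p = 0.126). With slide effects removed the values were -0.69 with Per2, -0.68 with Dbp, -0.71 with Per3 and -0.66 with Tef, and all of these passed (permutation adjusted p = 0.0098, 0.00763, 0.0114 and 0.0202). These p-values again come from permutation within groups only and may be too small. Within the LL mice Clock and Dbp had r = 0.00 and within WW -0.34 (n = 6 each), and Clock and Tef had 0.54 and -0.22.

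Nr1d1 and Nr1d2, the pair of REV-ERB genes, did not go together (r = -0.23, rho = -0.16, permutation adjusted p = 0.449 and 0.542), and Nr1d1 with Dbp had r = 0.20. Per1 had r = 0.46 with Per2 (permutation adjusted p = 0.129), 0.40 with Per3 (0.129) and 0.22 with Dbp (0.552), and Nr1d1 had 0.12 with both Tef and Per3, none past the threshold. With slide effects removed, Per1 passed with Per2 (0.54, permutation adjusted p = 0.0358) and Per3 (0.55, adjusted p = 0.0238), and Nr1d1 passed with Tef (0.67, permutation adjusted p = 0.0093) and Per3 (0.46, adjusted p = 0.0469). Here too the permutation was within groups only, so these p-values may be too small. LL replicate 1 was high in Per1 and low in Dbp and Per2, and without it and WL replicate 5 the r of Per1 with Per2 was 0.69 (permutation adjusted p = 0.03) and with Dbp 0.63 (adjusted p = 0.0768).

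**Figure D3:**
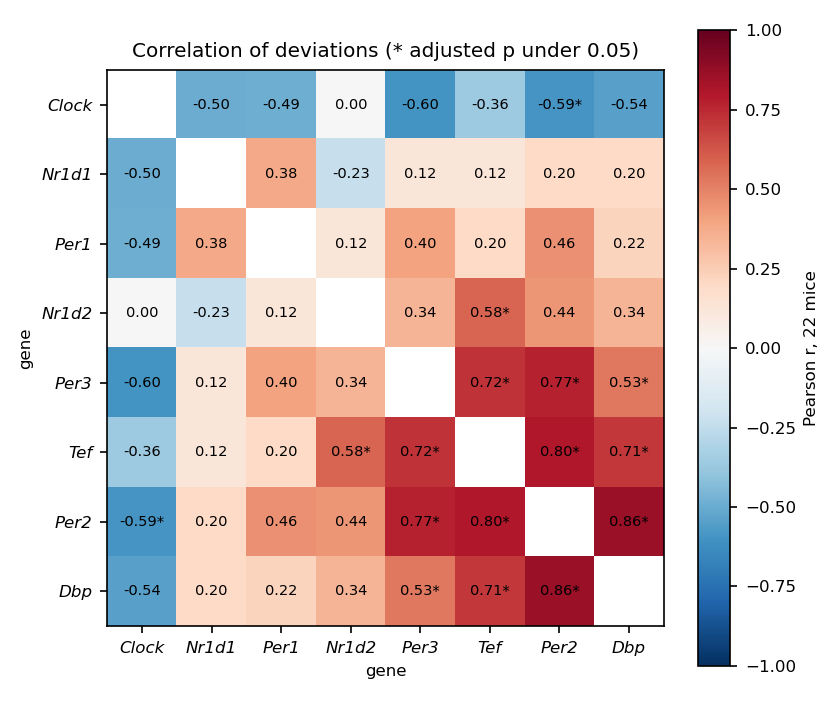
Pearson r between deviations from the group mean over 22 mice for the 28 pairs of 8 clock genes, with an asterisk where the permutation p adjusted over 28 pairs is under 0.05. Per3, Tef, Per2 and Dbp form a positive block (0.53 to 0.86) and Clock is negative or at 0.00 with every other gene.

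**Figure D4:**
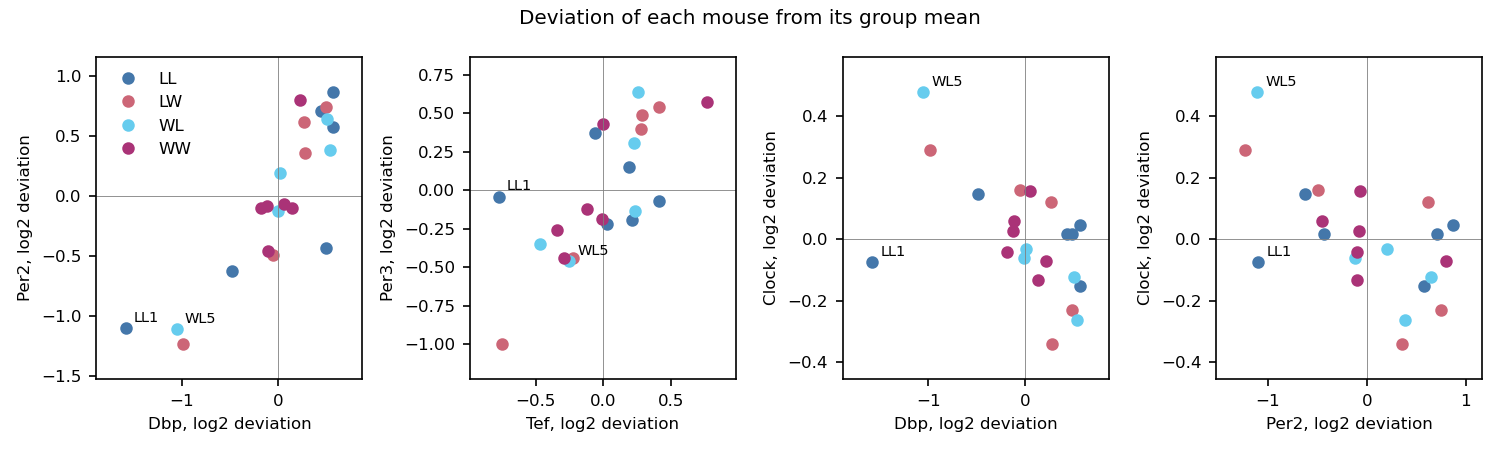
Deviation of each mouse from its group mean on the log2 scale for 4 pairs of genes, coloured by group, with LL replicate 1 and WL replicate 5 labelled LL1 and WL5. Dbp and Per2 rise together (r = 0.86), while Clock is lower in mice with higher Dbp (r = -0.54) and Per2 (r = -0.59), with WL replicate 5 at the upper left.

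Outside the members, the 5 genes with the highest r to Dbp over the 22 mice, on deviations from the group means, were Slc5a6 (0.85), Dhrs7 (0.82), Hpf1 (0.81), Ivns1abp (0.80) and Vldlr (0.80). The 5 lowest were Luc7l (-0.82), Brd2 (-0.81), Sav1 (-0.81), Ttc17 (-0.81) and Usp6nl (-0.80). With slide removed these ran from 0.68 to 0.79 and from -0.80 to -0.69. Tef ranked at place 47 from the top among the 9880 genes for Dbp, and Per3 at 436. For Clock, added after it was known that Arntl was not detected, the highest were Eif1a (0.80), Leprotl1 (0.76), Caprin1, Tlcd4 and Ppy (0.73 each), and the lowest Zyx (-0.78), Ell3 (-0.76) and Prxl2b, Slc46a3 and Amn1 (-0.72 each). Among the members Per3 was nearest to that end, at place 84 from the lowest. These genes were picked as extremes of all genes, so their r is a description.

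Of 21 other clock genes 12 were tested. The list was chosen with earlier results of these data known, so its counts are a description only. Cry1, Hlf, Nfil3 and Bhlhe41 were among those that did not meet the detection filter. In the average over dam diets 2 of the 12 were called higher with a western diet after weaning and 0 lower, beside 1.53% of all genes called higher. They were Ciart, a repressor of the CLOCK and BMAL1 pair (1.75 ± 0.37, 3.36-fold, adjusted p = 0.014), and Usp2, a ubiquitin protease with a strong daily rhythm in mouse liver (1.44 ± 0.37, 2.72-fold, adjusted p = 0.0337). The mean level of Ciart was 5.92 in LL, 7.88 in LW, 6.09 in WL and 7.62 in WW, and that of Usp2 was 7.30, 8.91, 7.45 and 8.72. The Ciart call was kept whichever mouse was left out, with slide as a block (adjusted p = 0.0227) and without LL replicate 1 and WL replicate 5 together (1.51, adjusted p = 0.0386). The Usp2 call was kept in 12 of 22 cases and lost without LW replicate 1, 3, 4 or 5, WW replicate 1 or 2, WL replicate 4 or 5, or LL replicate 4 or 5, and also without LL replicate 1 and WL replicate 5 together (1.27, adjusted p = 0.0778). Rora, a receptor that acts on the same elements as REV-ERB, was not called (-0.41 ± 0.12 in WW against WL, adjusted p = 0.136). In LW against LL 10 of 12 were higher (median 0.13), in WW against WL 9 of 12 (median 0.17), and 0 passed in either.

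Of 23 output genes of the liver clock 20 were tested. Their choice was also made with earlier results of these data known, so the shares beside the counts test nothing. In the average over dam diets 1 was called higher, beside 1.53% of all genes, and 3 lower, beside 1.18%. Cyp2a5, a cytochrome P450 whose gene is a target of the PAR bZIP factors in mouse liver, rose by 0.82 ± 0.19 (adjusted p = 0.0215), though its probe may share signal with the near-identical Cyp2a4, and the call was lost without LW replicate 1. Elovl3, a fatty acid elongase (-1.58 ± 0.23, adjusted p = 0.000524), Avpr1a, a vasopressin receptor (-1.48 ± 0.25, adjusted p = 0.00207), and Insig2, a regulator of sterol synthesis (-0.64 ± 0.17, adjusted p = 0.0472), fell. The Insig2 call was kept in 7 of 22 cases with 1 mouse left out and lost with slide as a block (adjusted p = 0.113) or without LL replicate 1 and WL replicate 5 together (-0.55, adjusted p = 0.0999). Elovl3 is also male-biased in mouse liver. In WW against WL 0 were called higher and 2 lower (Elovl3 and Avpr1a), beside 0.253% of all genes, both lost without WL replicate 5. Without LL replicate 1 and WL replicate 5 together, Avpr1a passed there (-1.56, adjusted p = 0.025) and Elovl3 did not (-1.42, adjusted p = 0.0533). Nr1i3, Por and Alas1, genes of the xenobiotic receptor CAR, the P450 reductase and heme synthesis that lie downstream of the PAR bZIP factors in mouse liver, were not called for the offspring's diet (0.19 ± 0.16, 0.02 ± 0.19 and 0.35 ± 0.24, adjusted p = 0.551, 0.966 and 0.429). For the dam's diet, averaged over both offspring diets, they were at -0.36 ± 0.16, -0.38 ± 0.19 and -0.46 ± 0.24, without passing (adjusted p = 0.816 for each).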

How the data were processed

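Liver RNA of 22 mice was hybridised to Illumina BeadChips, 1 array each, after extraction with TriReagent and biotin labelling, per the labels' protocols. The deposited non-normalized table gives an intensity and a detection p-value for each of 45281 probes. On each array 33.2% to 41.2% of these intensities were negative, so background had been taken off before deposit. The authors' deposited series matrix holds further intensity values on a linear scale (array medians of 245), whose normalization and centring are not given in the sources used here. The 22 columns were each matched best by the same array of the first table.

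The intensities were processed with neqc of limma 3.58.1 (R 4.3.3, offset 16) and put on a log2 scale. Target names were matched to symbols of a RefSeq table (GRCm38.p6), 27399 by symbol, 8314 by synonym, 191 to several genes and 9377 to none. Probes with a detection p under 0.05 on at least 5 arrays were kept (16268), and the probe with the highest mean was used for each gene (9881 genes). Group means of all 22 arrays were fitted with lmFit and eBayes without covariates, since the labels' protocols state no model, and adjusted with Benjamini-Hochberg. Deposited columns not assigned to a sample numbered 0. The fit and the permutation test were tested on simulated data. The members, lists and motifs were chosen with earlier results of these data known. The 10 members were always named, with up to 4 genes of smallest p per list and comparison and the 5 highest and lowest r to Dbp. Clock was used in place of Arntl, which was not detected. The text gives a subset of these. Nothing in the labels says that the mice came from separate litters, so the p-values measure the spread between mice. The number of arrays limits the precision.

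The slide of each array was read from the sample descriptions and used as a block in alternatives. Alternatives were the submitters' values, another offset, 2 other filters, all probes, slide as a fixed or random block, a replicate block, only the groups compared, and mice left out.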

Additional observations from a re-analysis of the deposited data

Results flagged for a closer look

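Within each group, the highest and the lowest mouse of every tested clock gene were compared with the nearest other mouse (Dixon's ratio of the gap to the range). The 95% critical value is 0.625 for the groups of 6 mice and 0.71 for the groups of 5. Of 32 groups of values 2 held a mouse beyond the value for their size, where chance gives about 1 in 20, and none of the groups of 5 did (highest ratio 0.696, Per1 in LW replicate 2). Both were WW replicate 5, whose Per2 level was 8.73 against 7.86 in the next WW mouse (ratio 0.692), and whose Tef level was 8.51 against 7.75 (ratio 0.689). The same mouse had the highest Dbp, Per1, Per3 and Nr1d2 of its group.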

How the results depend on the processing

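The Clock call in LW against LL (1 member called) was absent, with 0 members called, under the submitters' normalized values, no detection filter, slide as a fixed or a random block, all detected probes and a fit of only the 2 groups, and 2 members were called without LL replicate 1 and WL replicate 5. With 1 mouse left out the count ran from 0 to 2. In WW against WL it was 0, and 1 with slide as a fixed block. For the average over offspring diet (2 members) it was 1 without the filter and 4 with slide as a fixed block, and ran from 1 to 3 with 1 mouse left out. With slide as a random block Per2 passed there beside Clock and Dbp (0.93, adjusted p = 0.0457). The 8 pairs became 5 without the 2 farthest mice and ran from 5 to 10 with 1 mouse left out. With slide effects removed 13 pairs passed, by permutation within groups only, where p-values may be too small. The cause of these changes was not tested. Differences near 0 changed sign: Per3 in WW against WL (-0.02 without LL replicate 1 and WL replicate 5), Nr1d2 there (0.00 with submitters' values, 0.13 and 0.04 with slide fixed and random), Per2 in WW against LW (0.13 and 0.06 with slide), Dbp there (0.02 with submitters' values, 0.06 and 0.02 with slide), Per1 in the interaction (0.02, 0.38 and 0.20 in the same order), Nr1d1 for offspring diet (-0.00 with submitters' values, -0.04 with slide fixed), Tef for offspring diet (-0.05 without both mice) and Per3 for dam diet (-0.00 with an offset of 50). With 1 mouse left out, the sign changed within -0.02 to 0.26 (Per3), -0.26 to 0.04 (Nr1d1) and -0.12 to 0.07 (Nr1d2) in WW against WL, -0.12 to 0.04 (Clock), -0.32 to 0.18 (Per2) and -0.29 to 0.08 (Dbp) in WW against LW, -0.34 to 0.24 (Per1) in the interaction, -0.02 to 0.15 (Tef) for offspring diet, and -0.10 to 0.09 (Per3) and -0.01 to 0.14 (Nr1d1) for dam diet. Over all genes, the 24 calls in LW against LL became 0 with submitters' values, 16 with an offset of 50, with the stricter filter or with slide random, 7 without a filter, 5 with slide fixed and 67 with a replicate block. The 47 calls in WW against WL became 125 with submitters' values, 2 without a filter, 316 and 122 with slide fixed and random and 122 with a replicate block. The 268 calls for offspring diet became 788 with a replicate block. Leaving out 1 mouse moved these counts to between 4 (without LW replicate 5) and 87 (LL replicate 1), between 3 (WL replicate 5) and 81 (WL replicate 2), and between 136 (WL replicate 5) and 524 (LL replicate 1), and a fit with neither LL replicate 1 nor WL replicate 5 gave 205 and 5 for the first and second of them. Over 31 pairs of same-numbered mice the correlation of deviations ran from -0.182 to 0.452, with 16 above 0.1. The 6 pairs of replicate 1 lay between 0.302 and 0.452, 3 of them on 1 slide and 3 across slides, while each of replicates 2, 3, 4 and 5 had pairs below 0, so the numbers were not taken to pair the mice throughout. With a replicate block the member counts stayed at 1, 0 and 2 in LW against LL, WW against WL and offspring diet, while 11 pairs passed. The permutations for those pairs were also within groups only. Genes near background, Per3 and Nr1d2 above all, are limited by signal over background.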
